A study of Mus musculus with 12 samples.

Results

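The cholesterol and fatty acid synthesis genes followed here are 38 named genes: the enzymes that turn acetyl-CoA into cholesterol or into fatty acids, the SREBP regulators that govern them, and a few genes of acyl-CoA and sterol handling. They were chosen by name, with earlier results of these data known, and matched by symbol to the rows of a log2 expression table. Their counts beside those of all genes are therefore a description and no independent test. For 34 of the 38 a row naming that gene alone was found, and these 34 are among the 22180 genes tested. A further 3, Idi1, Scd2 and Acsl3, lie on rows annotated to a second gene as well, and Acat2 was not analysed here. Total RNA of 12 mouse samples, 1 array each (Affymetrix Mouse Gene 2.0 ST), was measured in 6 groups of 2. The cells were splenic CD4+ T cells of 8-week-old Foxp3.eGFP reporter mice on a C57BL/6 background, sorted by the reporter into Foxp3+ regulatory (Treg) and Foxp3- effector (Teff) cells. Treg and Teff cells were each taken after 3 days of culture with antibodies against CD3 and against CD28, each at 2 µg/ml (a-CD3-CD28), after 3 days with soluble OX40L at 5 µg/ml and JAG1 at 1 µg/ml (OX40L-JAG1), or fresh (control). Antibodies to CD3 and CD28 trigger the T cell receptor and its costimulator, whereas OX40L and JAG1 are ligands of the receptors OX40 and Notch. Because control cells were never in culture, the effects of culture and of treatment cannot be told apart against them. The labels do not say whether the 2 samples of a group (replicates 1 and B) came from separate mice or cultures, so p-values reflect the spread between these samples alone, which may be technical.

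Cells sense their sterol supply through Scap and Insig1: when sterols are scarce, Scap carries the precursor of an SREBP transcription factor out of the endoplasmic reticulum, the factor is cut free, and it raises the genes of the mevalonate and sterol pathway (mainly SREBP-2, from Srebf2) and of fatty acid synthesis and desaturation (mainly SREBP-1, from Srebf1). When sterols are plentiful, Insig1 holds Scap back, and oxysterols activate the LXR receptors, which raise the exporters Abca1 and Abcg1 and also Srebf1. T cells that enter division after receptor stimulation are known to need this pathway for new membranes.

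Promoter windows show what these genes share in sequence. RefSeq windows (GRCm38.p6) of 300 bases, 250 before and 50 after the start, were found for 30 of the 38 genes, 37 windows in all. Shown are Hmgcs1 and Lss, which rose in both cell types after a-CD3-CD28, and Fasn and Elovl6, whose responses differed between the cell types. Capitals mark matches, on either strand, to the sterol regulatory element TCACNCCAC or to the NF-Y box CCAAT.
Hmgcs1, chr13:119690101-119690400, plus strand: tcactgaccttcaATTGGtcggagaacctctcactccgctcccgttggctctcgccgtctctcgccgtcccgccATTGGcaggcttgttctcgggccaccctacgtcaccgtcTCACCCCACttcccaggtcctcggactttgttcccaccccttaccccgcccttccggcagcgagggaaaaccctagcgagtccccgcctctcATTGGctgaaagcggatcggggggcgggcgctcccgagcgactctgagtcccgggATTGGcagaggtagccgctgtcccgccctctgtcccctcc
Lss, chr10:76531355-76531654, plus strand: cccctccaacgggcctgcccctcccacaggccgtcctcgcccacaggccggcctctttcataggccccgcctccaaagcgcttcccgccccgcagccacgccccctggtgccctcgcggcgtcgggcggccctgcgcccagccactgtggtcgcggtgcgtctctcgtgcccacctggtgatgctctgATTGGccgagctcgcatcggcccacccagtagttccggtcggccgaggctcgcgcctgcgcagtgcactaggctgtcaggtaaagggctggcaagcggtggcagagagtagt
Fasn, chr11:120824498-120824797, minus strand: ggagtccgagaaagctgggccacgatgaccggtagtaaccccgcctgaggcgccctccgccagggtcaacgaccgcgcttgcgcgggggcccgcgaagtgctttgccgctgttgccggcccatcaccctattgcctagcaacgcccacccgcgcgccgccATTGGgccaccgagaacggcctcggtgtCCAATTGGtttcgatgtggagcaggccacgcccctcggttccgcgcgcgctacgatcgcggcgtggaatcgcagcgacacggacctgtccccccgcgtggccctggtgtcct
Elovl6, chr3:129532136-129532435, plus strand: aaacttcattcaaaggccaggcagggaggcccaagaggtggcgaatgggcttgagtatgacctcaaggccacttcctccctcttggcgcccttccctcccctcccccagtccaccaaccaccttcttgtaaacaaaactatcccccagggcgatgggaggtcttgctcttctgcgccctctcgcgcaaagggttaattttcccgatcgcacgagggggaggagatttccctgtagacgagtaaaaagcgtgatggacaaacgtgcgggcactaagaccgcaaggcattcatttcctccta
The Hmgcs1 window holds 1 match to the sterol element, 137 bases before the start, and 4 NF-Y boxes. Lss holds 1 NF-Y box, Fasn 3, of which a neighbouring pair overlap, and Elovl6 none of these letters. Over the genes followed here, NF-Y boxes were in 24 of 37 windows (64.9%), against 37.4% of the 32851 windows of the table. The E-box CACGTG was in 8 of 37 windows (21.6%), against 7.15% of all windows; 2 of the 8 are overlapping Scap windows that hold the same site, so 7 genes have it. The sterol element as spelled was in 1 of 37 (2.7%), against 1.24% of all. These matches describe letters in the windows, not binding.

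Foxp3, the factor that defines Treg cells, stood between 10.36 and 11.22 in the 6 Treg arrays and between 5.58 and 6.81 in the 6 Teff arrays, and the 7 CD4 T cell markers averaged 8.88 to 10.82. The 2 OX40L-JAG1 Teff arrays stand apart from the rest. Their SD over genes was 1.49 and 1.71, against 1.95 to 2.19 in the other 10, and they correlated with each other at 0.881, against 0.984 to 0.994 in the other groups. Among genes with a mean level between 7 and 8, where 12 of the 34 genes lie, the median change of OX40L-JAG1 Teff over control Teff was -1.13 log2, against 0.30 in a-CD3-CD28 Treg over control Treg and -0.29 in a-CD3-CD28 Teff over control Teff. Counts of calls are therefore given with all arrays and without these 2. Levels below are log2 intensities and changes are log2 differences ± SE from limma, called at an adjusted p under 0.05. The heat map sets all 34 genes side by side. The highest of the 6 group means was that of a-CD3-CD28 Treg for 30 of the 34 genes, against 18.4% of all genes. For Lss and Stard4 it was a-CD3-CD28 Teff, and for Scap and Acss2 control Teff. Over all genes it was most often OX40L-JAG1 Teff (41.3%). The shares of all genes, here and below, include 8277 genes that averaged below the lowest array median in all 6 groups. None of the 34 genes did, so these shares are not like for like.

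**Figure D1:**
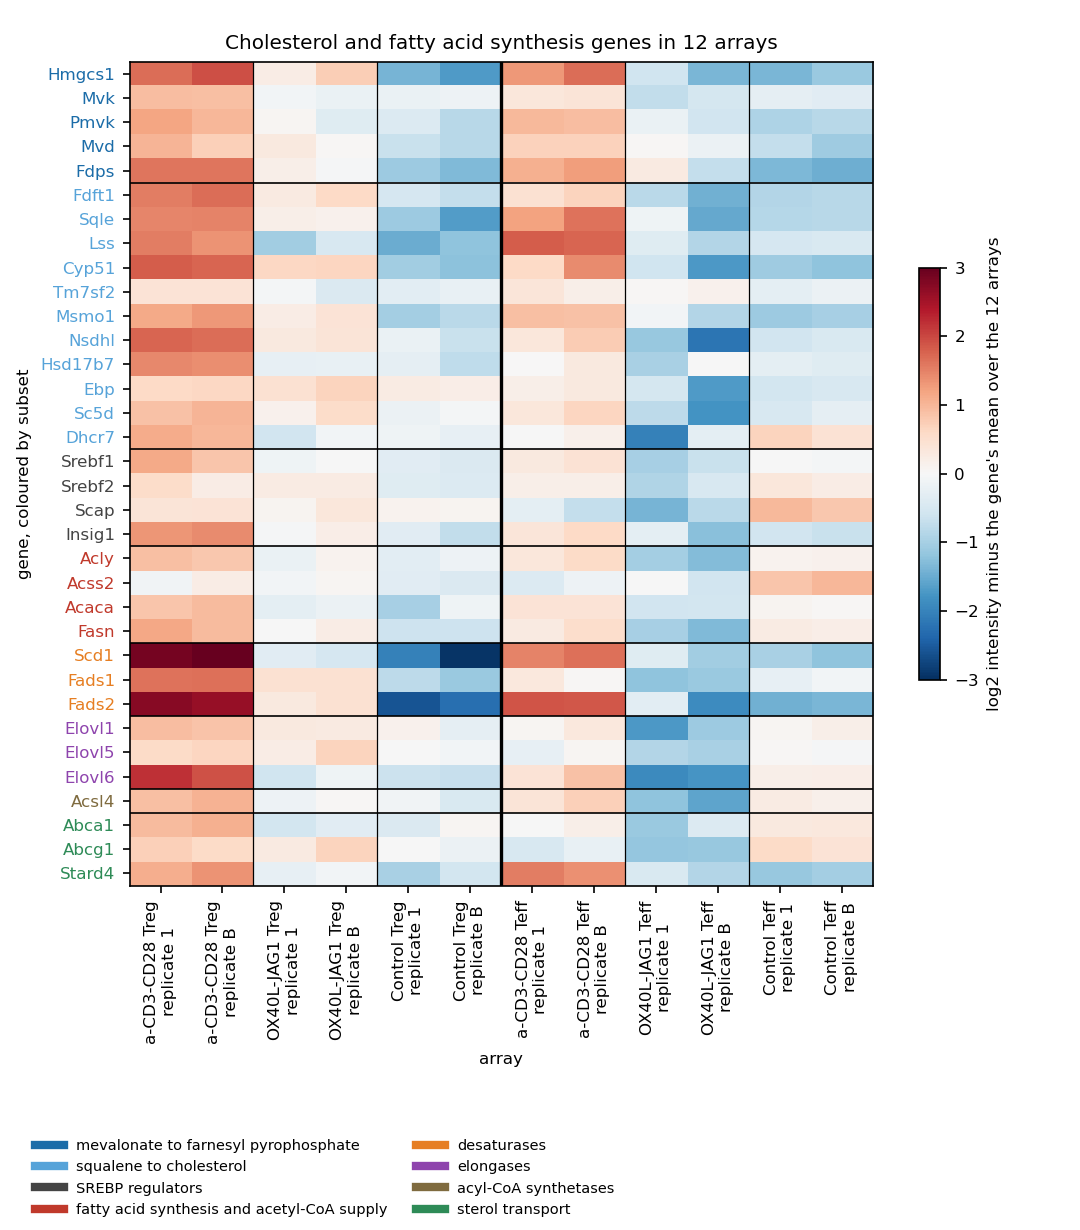
Heat map of the 34 genes (rows, coloured by subset) in the 12 arrays (columns, 2 a group, Treg left of Teff), as log2 intensity minus the gene's mean over all arrays, capped at 3. The a-CD3-CD28 Treg columns are above the gene's mean for nearly every gene, while Scap and Acss2 are highest in control Teff.

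In Treg cells, culture with a-CD3-CD28 went with higher levels of nearly the whole module. Of the 34 genes 29 rose over control Treg cells and none fell, against 8.08% of all genes that rose; without the 2 OX40L-JAG1 Teff arrays 31 rose, against 14.8%. In every one of the 34 both a-CD3-CD28 Treg arrays lay above both control Treg arrays, as they did for 30.2% of all genes. The median change was 1.65 over the 34 genes and -0.05 over all genes. The 5 genes not called were Ebp, Dhcr7, Scap, Acss2 and Elovl5. Of the 29 rises, 20 held under every alternative tried and without any single array. The calls of Mvk, Hsd17b7, Sc5d, Tm7sf2, Srebf1, Srebf2, Elovl1, Abca1 and Abcg1 were lost under quantile normalization. Those of Tm7sf2, Srebf2, Elovl1, Abca1 and Abcg1 were also lost when a loess trend of change with level was taken out, a setting added after the data were seen. Division genes were high in the same arrays: 8 of 9 cell cycle markers rose, with a mean level of 9.69 to 9.74 in a-CD3-CD28 Treg and 7.56 to 7.71 in control Treg arrays, and their part in the result was not tested. Among markers of other cells 1 of 8 neutrophil, 1 of 9 myeloid and dendritic cell and 1 of 4 erythroid and platelet markers rose, and no B cell, basophil and mast cell or CD8 T and NK cell marker was called. Fewer cells of a type and less RNA per cell cannot be told apart in such bulk samples.

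All 5 measured enzymes from acetyl-CoA to farnesyl pyrophosphate rose. Hmgcs1, the HMG-CoA synthase that opens the pathway, stood at 10.36 and 10.61 in a-CD3-CD28 Treg, 8.92 and 9.42 in OX40L-JAG1 Treg and 7.29 and 6.997 in control Treg arrays. The 3 groups did not overlap, and a-CD3-CD28 Treg exceeded control Treg by 3.34 ± 0.29 (10.2-fold, adjusted p = 2.37e-05). Fdps, which makes farnesyl pyrophosphate, the branch point to sterols and protein prenylation, stood at 9.89 and 9.89, at 8.46 and 8.26 and at 7.19 and 6.96 in the same 3 groups, and was higher in a-CD3-CD28 Treg than in control Treg by 2.82 ± 0.27 (adjusted p = 5.88e-05). Pmvk, the kinase that phosphorylates phosphomevalonate, stood at 8.69 and 8.51 in a-CD3-CD28 Treg, 7.56 and 7.14 in OX40L-JAG1 Treg and 7.08 and 6.67 in control Treg arrays, a rise of 1.72 ± 0.22 after a-CD3-CD28. Its lower OX40L-JAG1 array lay just above the higher control array. The mevalonate kinase Mvk rose by 1.09 ± 0.17 and the decarboxylase Mvd by 1.62 ± 0.21. The row shared by Idi1 and Gm13502 stood at 9.15 and 9.03 in a-CD3-CD28 Treg, 8.32 and 8.34 in OX40L-JAG1 Treg and 7.695 and 7.15 in control Treg arrays. It cannot be assigned to Idi1 and is in no count.

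From squalene to cholesterol, 9 of 11 enzymes rose. Cyp51, the lanosterol demethylase, stood at 9.53 and 9.45 in a-CD3-CD28 Treg, 8.33 and 8.36 in OX40L-JAG1 Treg and 6.66 and 6.49 in control Treg arrays. Sqle, the squalene epoxidase that is a slow step of the pathway, stood at 8.87 and 8.89, 7.58 and 7.54 and 6.32 and 5.72 in these groups in the same order. For both enzymes the OX40L-JAG1 arrays lay between the others without overlap. Their rises over control were 2.92 ± 0.34 for Cyp51 and 2.86 ± 0.37 for Sqle. Lss, the cyclase that forms lanosterol, had 8.25 and 8.04 in a-CD3-CD28 Treg, 5.66 and 6.22 in OX40L-JAG1 Treg and 5.21 and 5.502 in control Treg arrays, a rise of 2.79 ± 0.24 (adjusted p = 2.63e-05). Unlike the previous pair, its OX40L-JAG1 arrays lay close to control. Squalene synthase Fdft1 rose by 2.21 ± 0.23, and the demethylation enzymes Msmo1, Nsdhl and Hsd17b7 rose by 2.13 ± 0.25, 2.16 ± 0.31 and 1.94 ± 0.29. The remaining enzymes moved least. Sc5d rose by 1.06 ± 0.29 and Tm7sf2 by 0.699 ± 0.19. Dhcr7, the terminal reductase, changed by 1.24 ± 0.42 (adjusted p = 0.0973; 0.000438 without the OX40L-JAG1 Teff arrays), and the isomerase Ebp by 0.399 ± 0.304 (adjusted p = 0.514).

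Of the 4 regulators 3 rose. Insig1, itself a target of SREBP, stood at 9.96 and 10.06 in a-CD3-CD28 Treg, 8.61 and 8.85 in OX40L-JAG1 Treg and 8.305 and 7.91 in control Treg arrays, a rise of 1.903 ± 0.28 after a-CD3-CD28 (adjusted p = 0.00112). Srebf1 stood at 8.35 and 8.04 in a-CD3-CD28 Treg, at 7.07 and 7.19 in OX40L-JAG1 Treg and at 6.87 and 6.77 in control Treg arrays, and Srebf2 at 9.68 and 9.34, 9.36 and 9.37 and 8.76 and 8.71. Srebf1 rose by 1.37 ± 0.196 and Srebf2 by 0.78 ± 0.201 (adjusted p = 0.0313). Scap stood at 7.83 and 7.87 in a-CD3-CD28 Treg, 7.54 and 7.78 in OX40L-JAG1 Treg and 7.57 and 7.54 in control Treg arrays and was not called (0.296 ± 0.23, adjusted p = 0.531).

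The 3 desaturases rose, and Scd1 and Fads2 had the largest changes of the 34 genes. Scd1, which puts the first double bond into saturated fatty acids, stood at 8.91 and 9.36 in a-CD3-CD28 Treg, 5.69 and 5.53 in OX40L-JAG1 Treg and 4.001 and 3.09 in control Treg arrays. Fads2, which starts the synthesis of polyunsaturated fatty acids, stood at 9.59 and 9.48, at 7.17 and 7.33 and at 4.28 and 4.61 in these groups. The groups were far apart for both, and the mean of control Treg fell below 4.87, the lowest array median, which was taken as the level of background. Measured from that level, Scd1 was at least 19.3-fold and Fads2 at least 25.5-fold higher in a-CD3-CD28 Treg; the fitted changes were 5.59 ± 0.31 and 5.096 ± 0.38. Fads1, the next desaturase on the polyunsaturated route, stood at 8.35 and 8.35 in a-CD3-CD28 Treg, 7.18 and 7.17 in OX40L-JAG1 Treg and 5.92 and 5.59 in control Treg arrays, a rise of 2.59 ± 0.19 (adjusted p = 1.13e-05). The row shared by Scd2 and Mir5114 stood at 12.33 and 12.33 in a-CD3-CD28 Treg, 10.72 and 10.99 in OX40L-JAG1 Treg and 9.14 and 8.71 in control Treg arrays.

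Of the 4 fatty acid synthesis genes 3 rose, as did 2 of the 3 elongases. Fasn, the fatty acid synthase, stood at 9.44 and 9.22 in a-CD3-CD28 Treg, 8.25 and 8.499 in OX40L-JAG1 Treg and 7.64 and 7.65 in control Treg arrays and rose by 1.68 ± 0.198. Acaca, which supplies it with malonyl-CoA, stood at 7.49 and 7.59, 6.37 and 6.48 and 5.66 and 6.52 in these groups and rose by 1.45 ± 0.25 after a-CD3-CD28. Acly, which makes acetyl-CoA from citrate, stood at 9.81 and 9.71, 8.71 and 8.998 and 8.58 and 8.76 and rose by 1.09 ± 0.19. Its counterpart Acss2, which makes acetyl-CoA from acetate, stood at 7.27 and 7.58 in a-CD3-CD28 Treg, 7.29 and 7.44 in OX40L-JAG1 Treg and 7.03 and 6.93 in control Treg arrays and did not pass the test (0.44 ± 0.22, adjusted p = 0.284). Among the elongases, Elovl6, which extends the product of Fasn, stood at 9.19 and 8.92 in a-CD3-CD28 Treg, 6.403 and 6.87 in OX40L-JAG1 Treg and 6.36 and 6.32 in control Treg arrays and rose by 2.72 ± 0.22 (adjusted p = 1.92e-05). Its OX40L-JAG1 and control Treg arrays lay close together. Elovl1, for very long saturated chains, stood at 8.38 and 8.31, 7.76 and 7.73 and 7.58 and 7.196 and rose by 0.96 ± 0.23. Elovl5, for polyunsaturated chains, stood at 10.54 and 10.64, 10.203 and 10.66 and 9.96 and 9.902 and was not called (0.66 ± 0.203, adjusted p = 0.0665). Acsl4, an acyl-CoA synthetase that prefers arachidonic acid, stood at 8.91 and 9.06 in a-CD3-CD28 Treg, 7.84 and 8.05 in OX40L-JAG1 Treg and 7.904 and 7.56 in control Treg arrays and rose by 1.26 ± 0.22.

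The 3 sterol transport genes rose as well. Stard4, a cytosolic sterol carrier that is a target of SREBP-2, stood at 8.07 and 8.34 in a-CD3-CD28 Treg, 6.75 and 6.89 in OX40L-JAG1 Treg and 6.004 and 6.44 in control Treg arrays, a rise of 1.98 ± 0.22. The exporter Abca1 stood at 7.37 and 7.48, 5.86 and 6.08 and 5.97 and 6.47 in these groups, and the exporter Abcg1 at 8.49 and 8.36, 8.05 and 8.45 and 7.78 and 7.61. The exporters rose by 1.202 ± 0.26 (Abca1, adjusted p = 0.0111) and 0.73 ± 0.199 (Abcg1, adjusted p = 0.0394).

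**Figure D2:**
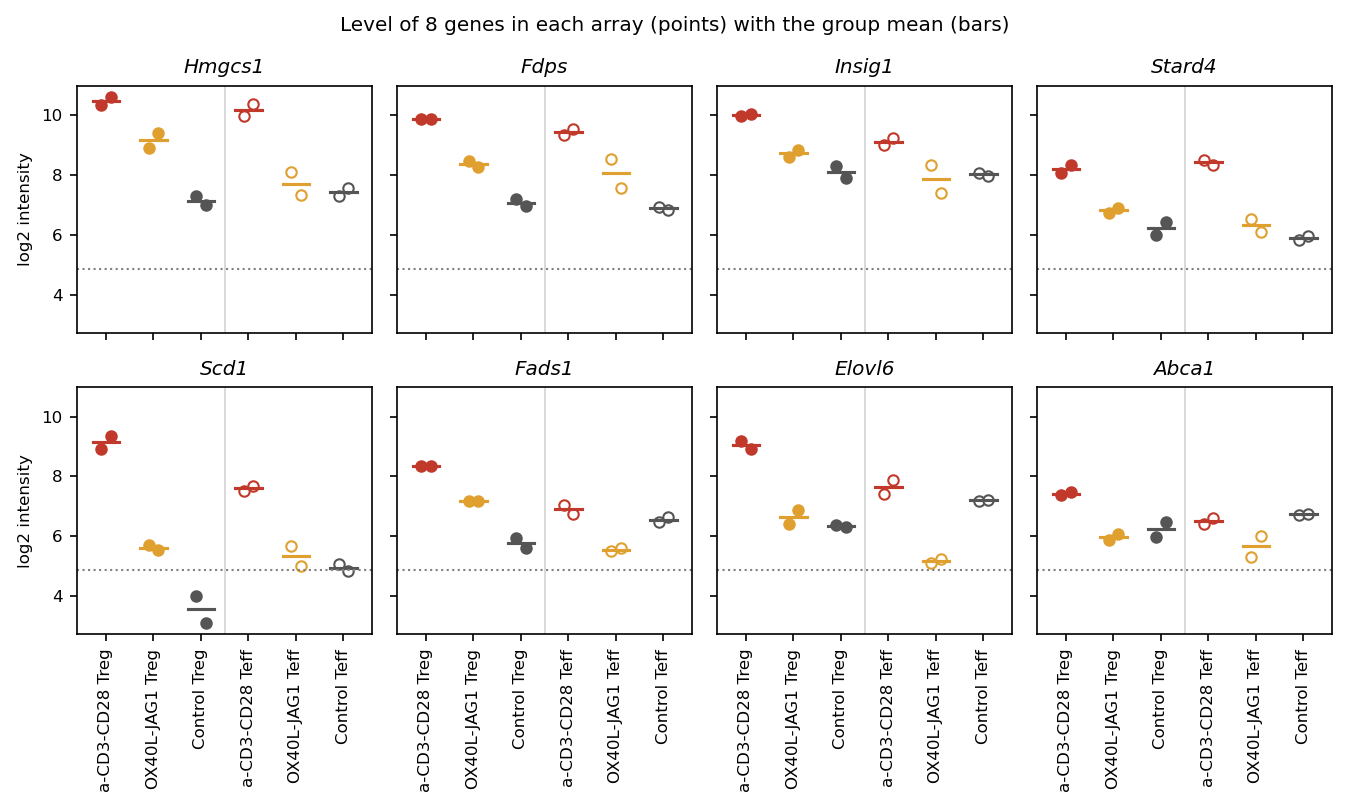
Log2 intensity (vertical axis) of 8 genes in each of the 12 arrays (points; filled Treg, open Teff) with the group mean (bar); the dotted line is the lowest array median, 4.87. Hmgcs1, Fdps, Insig1 and Stard4 are high after a-CD3-CD28 in both cell types, while Fads1, Elovl6 and Abca1 are high in a-CD3-CD28 Treg arrays and close to control in a-CD3-CD28 Teff arrays.

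In Teff cells, a-CD3-CD28 went with a rise of most sterol enzymes, while few of the fatty acid genes were called. Of the 34 genes 15 rose over control Teff and 3 fell, against 5.44% and 9.75% of all genes; with those 2 arrays left out 18 rose and 3 fell, against 12.5% and 16.5%. The median change was 0.58 over the 34 genes and 0.07 over all genes. The 15 were all 5 mevalonate enzymes, 6 of 11 squalene to cholesterol enzymes, Insig1, Scd1, Fads2 and Stard4; the 3 that fell were Scap, Acss2 and Abcg1. None of the 4 fatty acid synthesis genes, of the 3 elongases or of the acyl-CoA synthetase rose. Of the 15 rises 12 held under every alternative and without any single array. Cell cycle markers were high here too (6 of 9 rose, mean level 8.97 to 9.08 in a-CD3-CD28 Teff and 7.51 to 7.57 in control Teff arrays). Of 8 Treg markers 5 rose (8.51 to 8.65 and 6.37 to 6.43): Il2ra, Ctla4, Tnfrsf18, Tnfrsf4 and Lrrc32. Foxp3 was not among them, at 5.58 and 5.72 in a-CD3-CD28 Teff and 5.66 and 5.66 in control Teff arrays. Nor were Ikzf4 (6.29 and 6.52 against 6.30 and 6.48) and Ikzf2 (7.31 and 7.57 against 7.14 and 7.26). Of 7 CD4 T cell markers 3 fell. Of 7 B cell markers 5 fell (4.79 to 4.82 in a-CD3-CD28 Teff and 5.605 to 5.61 in control Teff arrays, with 5 and 3 below the lowest array median, 4.87). Of 8 neutrophil markers 3 fell and 1 rose (4.59 to 4.67 and 5.35 to 5.43), and of 4 erythroid and platelet markers 3 rose (6.47 to 6.57 and 4.79 to 4.81). The part of these markers in the result was not tested.

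Hmgcs1 stood at 9.98 and 10.37 in a-CD3-CD28 Teff against 7.305 and 7.56 in control Teff arrays (2.74 ± 0.29, adjusted p = 0.000109). Fdps stood at 9.36 and 9.55 against 6.95 and 6.82 (2.57 ± 0.27) and Pmvk at 8.46 and 8.43 against 6.58 and 6.68 (1.82 ± 0.22). The groups were far apart for these 3 genes. For Cyp51 the a-CD3-CD28 Teff arrays had 8.31 and 9.13 and the control Teff arrays 6.63 and 6.51 (2.15 ± 0.34); for Sqle they had 8.62 and 9.03 and 6.56 and 6.58 (2.26 ± 0.37). Lss reached 8.53 and 8.46 in a-CD3-CD28 Teff, against 6.19 and 6.25 in control Teff arrays (2.27 ± 0.24). The carrier Stard4 reached 8.51 and 8.35 in a-CD3-CD28 Teff, against 5.84 and 5.98 in control Teff arrays (2.52 ± 0.22, adjusted p = 3.59e-05). Lss and Stard4 thus had their highest group mean here. Insig1 stood at 9.01 and 9.23 in a-CD3-CD28 Teff and 8.08 and 7.98 in control Teff arrays (1.09 ± 0.28, adjusted p = 0.023).

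The desaturases Scd1 and Fads2 also rose in a-CD3-CD28 Teff cells, where their control means were not below background. For Scd1, though, the control Teff mean was 4.94, just above that level (4.87), with replicate B below it. Its rise is thus close to a lower bound. Scd1 stood at 7.51 and 7.69 in a-CD3-CD28 Teff and 5.06 and 4.83 in control Teff arrays (2.66 ± 0.31), and Fads2 at 8.75 and 8.73 and 5.42 and 5.49 (3.29 ± 0.38). By contrast Fads1 had 7.04 and 6.75 in a-CD3-CD28 Teff and 6.46 and 6.64 in control Teff arrays (0.35 ± 0.19, adjusted p = 0.279). Elovl6 had 7.43 and 7.89 and 7.18 and 7.21 (0.46 ± 0.22, adjusted p = 0.213), Fasn 8.54 and 8.79 and 8.52 and 8.48 (0.17 ± 0.198, adjusted p = 0.657). These 3 missed the threshold. Acaca had 7.06 and 7.06 and 6.73 and 6.69, Acly 9.24 and 9.47 and 8.9997 and 9.04, and Acsl4 8.39 and 8.72 and 8.26 and 8.16, with changes of 0.35 ± 0.25, 0.34 ± 0.19 and 0.34 ± 0.22. Elovl1 had 7.53 and 7.77 in a-CD3-CD28 Teff and 7.52 and 7.63 in control Teff arrays, and Elovl5 9.75 and 10.04 and 10.02 and 9.94.

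The sensor Scap fell, at 7.17 and 6.74 in a-CD3-CD28 Teff and 8.43 and 8.26 in control Teff arrays (-1.39 ± 0.23, adjusted p = 0.00222). Acss2, named after its values were seen, fell as well, at 6.96 and 7.21 in a-CD3-CD28 Teff and 8.21 and 8.38 in control Teff arrays (-1.21 ± 0.22, adjusted p = 0.00373), and Abcg1 at 7.31 and 7.55 and 8.36 and 8.199 (-0.85 ± 0.199, adjusted p = 0.0139). In none of the 3 did the groups overlap, but under quantile normalization the call held for Acss2 alone, and with the loess trend taken out for Scap and Acss2. Scap has 2 rows, of which the one with the higher mean was used. With the mean of a gene's rows, 2 falls were called instead of 3. Srebf1 had 7.498 and 7.65 in a-CD3-CD28 Teff and 7.19 and 7.14 in control Teff arrays (0.41 ± 0.196), Srebf2 9.296 and 9.301 and 9.47 and 9.34 (-0.11 ± 0.201), and Abca1 6.404 and 6.601 and 6.71 and 6.74 (-0.22 ± 0.26), none of them called.

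The difference between the cell types was tested directly, as the Treg response less the Teff response, both over fresh control. It was above 0 for 11 of the 34 genes and below 0 for none, against 10.1% of all genes above 0; without the OX40L-JAG1 Teff arrays it was above 0 for 21, against 20.0%. With the loess trend taken out it was above 0 for 4 and below 0 for 2. With the mean of a gene's rows, where Scap alone of the 34 has more than 1, it was above 0 for 9. The median difference was 0.84 over the 34 genes, against 0.69 among all genes with a level between 7 and 8. None of the 5 mevalonate enzymes was called, with differences from -0.10 to 0.60, and of the squalene to cholesterol enzymes 1 of 11, Hsd17b7 (1.45 ± 0.41), or 4 of 11 without the OX40L-JAG1 Teff arrays. Dhcr7 had the largest difference of these enzymes, 1.71 ± 0.595, and was not called with all arrays (adjusted p = 0.0837). All 3 desaturases were: Scd1 by 2.93 ± 0.45 (adjusted p = 0.00251), Fads1 by 2.25 ± 0.27 (adjusted p = 0.000759) and Fads2 by 1.81 ± 0.54 (adjusted p = 0.0497). Because control Treg lay below background for Scd1 and Fads2, only differences of at least 1.61 and at least 1.39 are measured for them. The bound of Scd1 takes its control Teff level, just above background, as measured. Elovl6 differed by 2.26 ± 0.32 (adjusted p = 0.0017), Fasn by 1.51 ± 0.28, Acss2 by 1.65 ± 0.32, Scap by 1.69 ± 0.33 and Srebf1 by 0.96 ± 0.28. The exporters Abcg1 and Abca1 differed by 1.58 ± 0.28 and 1.42 ± 0.36. Of the 11, Acss2, Scd1, Fads1 and Elovl6 were called under every alternative and without any single array. Leaving out 1 array of a-CD3-CD28 Treg, a-CD3-CD28 Teff or control Teff, or replicate 1 of control Treg, left 7 calls, and leaving out either OX40L-JAG1 Teff array gave 21. In the same test 4 of 7 CD4 T cell, 3 of 8 neutrophil and 2 of 9 cell cycle markers were above 0 and 4 of 8 Treg markers below 0, and their part in the result was not tested. For the sterol enzymes the missing call does not show equal responses: the SE of the difference was 0.40 for Hmgcs1 and 0.53 for Sqle.

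**Figure D3:**
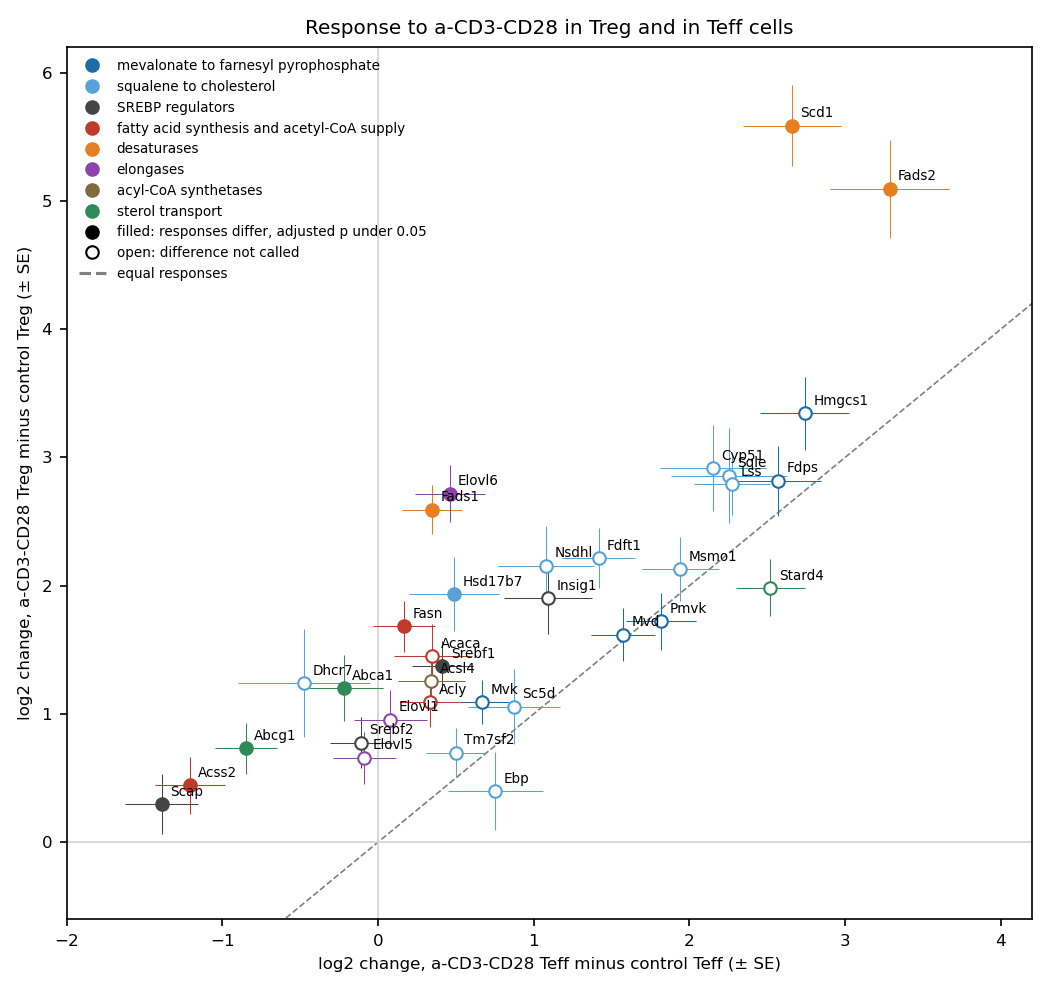
Log2 change after a-CD3-CD28 in Teff cells (horizontal axis) and in Treg cells (vertical axis), each over its fresh control, for the 34 genes with SE bars; filled points are the 11 genes whose responses differed. The 5 mevalonate enzymes lie near the dashed line of equal responses (differences of -0.10 to 0.60), the squalene to cholesterol enzymes scatter up to 1.71 above it (Dhcr7), and Scd1, Fads1 and Elovl6 lie farthest above it.

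After a-CD3-CD28, Treg cells also had the higher level outright for 10 of the 34 genes over a-CD3-CD28 Teff cells, against 9.03% of all genes, and none was lower; without the OX40L-JAG1 Teff arrays 18 were higher, against 18.2%. The 10 were Fdft1, Nsdhl, Hsd17b7, Scap, Scd1, Fads1, Elovl5, Elovl6, Abca1 and Abcg1. Of these, Scd1 by 1.53 ± 0.31, Fads1 by 1.46 ± 0.19 and Elovl6 by 1.401 ± 0.22 differed most. Only Fads1 and Elovl6 were called under every alternative and without any single array. All genes of such levels were shifted the same way. At levels of 6 to 7, 7 to 8, 8 to 9 and 9 to 10 their median differences were 0.34, 0.44, 0.43 and 0.50. Those of the genes followed here were 0.67, 0.65, 0.44 and 0.45. Quantile normalization left 3 calls. The count fell to 2 without replicate B of a-CD3-CD28 Treg or replicate 1 of a-CD3-CD28 Teff, to 3 without replicate 1 of a-CD3-CD28 Treg, and to 6 without replicate B of a-CD3-CD28 Teff or either control Teff array. It was 18 without either OX40L-JAG1 Teff array. Of the 7 CD4 T cell markers 3 were higher in a-CD3-CD28 Treg as well, as was 1 of 9 cell cycle markers, and their part in the result was not tested.

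In fresh cells part of the fatty acid genes were called lower in Treg than in Teff cells. Control Treg cells were lower than control Teff cells in 4 of the 34 genes and higher in none, against 2.51% of all genes that were lower; leaving out the OX40L-JAG1 Teff arrays, 11 were lower, against 8.93%. The 4 were Acss2 (-1.31 ± 0.22, adjusted p = 0.00705), Scd1 (-1.395 ± 0.31, adjusted p = 0.0335), Fasn (-0.85 ± 0.198, adjusted p = 0.0375) and Fads1 (-0.79 ± 0.19, adjusted p = 0.045). Of these, Scd1 and Fads1 were called the other way round after a-CD3-CD28, and Acss2 and Fasn were not. The individual levels are those given above, with Scd1 of control Treg below background, so that its fold is only a bound, at least 1.05-fold lower. The count was 1 or 0 without any one of the arrays other than the OX40L-JAG1 Teff arrays and 12 without either of those: 0 without replicate B of control Treg or either control Teff array, and 1 without replicate 1 of control Treg or any one a-CD3-CD28 or OX40L-JAG1 Treg array or a-CD3-CD28 Teff array. Under quantile normalization Acss2 alone of the 4 kept its call, and with replicate as a block 2 genes were called. No mevalonate enzyme was called in the main fit, with differences from -0.29 to 0.25. Markers of other cells were lower in control Treg too: 4 of 7 B cell markers (mean level 4.66 to 4.84 in control Treg and 5.605 to 5.61 in control Teff arrays, with 5 and 3 below the lowest array median) and 4 of 8 neutrophil markers (4.14 to 4.196 and 5.35 to 5.43, with 7 and 3 below it). Their part in the result was not tested.

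With OX40L-JAG1, Treg cells showed a smaller rise, in which the calls were a few sterol enzymes and the desaturases. Of the 34 genes 7 rose over control Treg and none fell, against 0.996% of all genes that rose; without the OX40L-JAG1 Teff arrays 13 rose, against 3.40%. They were Hmgcs1 (2.03 ± 0.29, adjusted p = 0.00413), Fdps (1.29 ± 0.27, adjusted p = 0.0446), Cyp51 (1.77 ± 0.34, adjusted p = 0.0246), Msmo1 (1.23 ± 0.25, adjusted p = 0.0338) and the desaturases Scd1 (2.07 ± 0.31), Fads1 (1.42 ± 0.19, adjusted p = 0.00341) and Fads2 (2.81 ± 0.38, adjusted p = 0.00351). Against the background level of control Treg, the rises of Scd1 and Fads2 were at least 1.68-fold and at least 5.22-fold. In 26 of the 34 genes both OX40L-JAG1 Treg arrays lay above both control Treg arrays, as in 23.2% of all genes, and the median change was 0.53 against -0.01 over all genes. Lss (0.58 ± 0.24), Elovl6 (0.299 ± 0.22), Insig1 (0.62 ± 0.28) and Srebf1 (0.31 ± 0.196) missed the threshold. None of the 7 rises was called under every alternative and without any single array.

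The 7 calls rest on few arrays: 1 remained without replicate B of control Treg or of OX40L-JAG1 Treg, 3 without replicate 1 of either, and 4 without 1 array of a-CD3-CD28 Treg or of control Teff, while 13 were made without either OX40L-JAG1 Teff array. Markers of other cells moved with this group. Of 8 neutrophil markers 4 rose, with a mean level of 6.54 to 7.03 in OX40L-JAG1 Treg and 4.14 to 4.196 in control Treg arrays, where 7 of the 8 averaged under the lowest array median, against 1 in OX40L-JAG1 Treg. Of 7 basophil and mast cell markers 3 rose (mean level 5.29 to 5.42 and 3.68), with 4 below that median in OX40L-JAG1 Treg and 7 in control Treg, and of 9 myeloid and dendritic cell markers 3 rose (5.49 to 5.56 and 4.39 to 4.51), with 5 and 8 below it. Their part in the result was not tested. No cell cycle marker was called (7.92 to 7.96 and 7.56 to 7.71). Without the OX40L-JAG1 Teff arrays 4 of 9 cell cycle markers rose and 1 fell, and 7 neutrophil, 4 basophil and mast cell and 4 myeloid and dendritic cell markers rose.

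The stimuli were also compared directly. In Treg cells a-CD3-CD28 gave higher levels than OX40L-JAG1 for 20 of the 34 genes and lower for none, against 4.73% of all genes that were higher; without the OX40L-JAG1 Teff arrays 28 were higher, against 9.89%. The largest differences were those of Scd1 (3.52 ± 0.31, adjusted p = 7.83e-05), Elovl6 (2.42 ± 0.22, adjusted p = 8.78e-05), Fads2 (2.29 ± 0.38) and Lss (2.21 ± 0.24, adjusted p = 0.00026). Hmgcs1 differed by 1.31 ± 0.29 and Stard4 by 1.38 ± 0.22, while Srebf2 (0.14 ± 0.201) and Ebp (0.05 ± 0.304) were not called. Lss, Scd1, Fads1 and Elovl6 were called under every alternative and without any single array. The count was 12 under quantile normalization, 8 and 9 without replicate 1 and replicate B of a-CD3-CD28 Treg, and 10 without replicate 1 of OX40L-JAG1 Treg. Cell cycle markers averaged 9.69 to 9.74 in a-CD3-CD28 Treg and 7.92 to 7.96 in OX40L-JAG1 Treg arrays. Of 8 neutrophil markers 5 were lower (4.495 to 4.54 in a-CD3-CD28 Treg and 6.54 to 7.03 in OX40L-JAG1 Treg arrays), as were 3 of 7 basophil and mast cell markers (3.55 to 3.68 and 5.29 to 5.42) and 3 of 9 myeloid and dendritic cell markers (4.41 to 4.52 and 5.49 to 5.56). The part of these markers in the result was not tested.

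In Teff cells OX40L-JAG1 gave no stable direction. With the values as deposited, 2 of the 34 genes rose over control Teff, Fdps (1.18 ± 0.27, adjusted p = 0.00531) and Mvd (0.81 ± 0.21), and 16 fell, against 20.0% and 26.9% of all genes. Under quantile normalization 9 rose and 3 fell, and after removal of the level trend 14 rose and 1 fell. Fdps rose and Elovl6 fell under every alternative and without any single array. Fdps stood at 8.55 and 7.58 in OX40L-JAG1 Teff, against 6.95 and 6.82 in control Teff arrays. Elovl6 stood at 5.09 and 5.24, against 7.18 and 7.21 (-2.03 ± 0.22, adjusted p = 7.48e-05), and its groups were well apart. For the other genes the 2 OX40L-JAG1 Teff arrays often differed from each other, with Hmgcs1 at 8.098 and 7.32, Sqle at 7.26 and 5.86, Cyp51 at 7.104 and 5.995, Insig1 at 8.35 and 7.39 and Fads2 at 6.56 and 4.97. Scd1 stood at 5.67 and 4.99, Fads1 at 5.502 and 5.59, Lss at 6.34 and 5.83, Stard4 at 6.54 and 6.103 and Pmvk at 7.29 and 6.92.

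The plot of change against level sets these values beside those of all genes. The regulators stood at 6.2002 and 6.54 (Srebf1), 8.21 and 8.63 (Srebf2) and 6.05 and 6.65 (Scap), and the exporters at 5.299 and 6.02 (Abca1) and 6.62 and 6.65 (Abcg1). Fasn stood at 7.29 and 6.96, Acly at 7.88 and 7.61, Acaca at 6.07 and 6.09, Acss2 at 7.35 and 6.803, Acsl4 at 6.796 and 6.41, Elovl1 at 5.74 and 6.36 and Elovl5 at 9.11 and 9.01. Relative to the all-gene median of -1.13 at levels of 7 to 8, the 12 genes at that level had a median of -1.0035. At levels of 6 to 7 the 10 genes had a median of -0.15, against -0.79 over all genes, and at levels of 8 to 9 the 10 genes had -0.75, against -1.28. In the same arrays 6 of 8 neutrophil markers (7.87 to 9.01 in OX40L-JAG1 Teff and 5.35 to 5.43 in control Teff arrays) and 5 of 7 basophil and mast cell markers (6.12 to 7.34 and 4.40 to 4.45) rose, with none of either list below the lowest array median in OX40L-JAG1 Teff, and 6 of 7 CD4 T cell markers fell (8.88 to 9.56 and 10.79 to 10.82). Their part in the result was not tested.

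**Figure D4:**
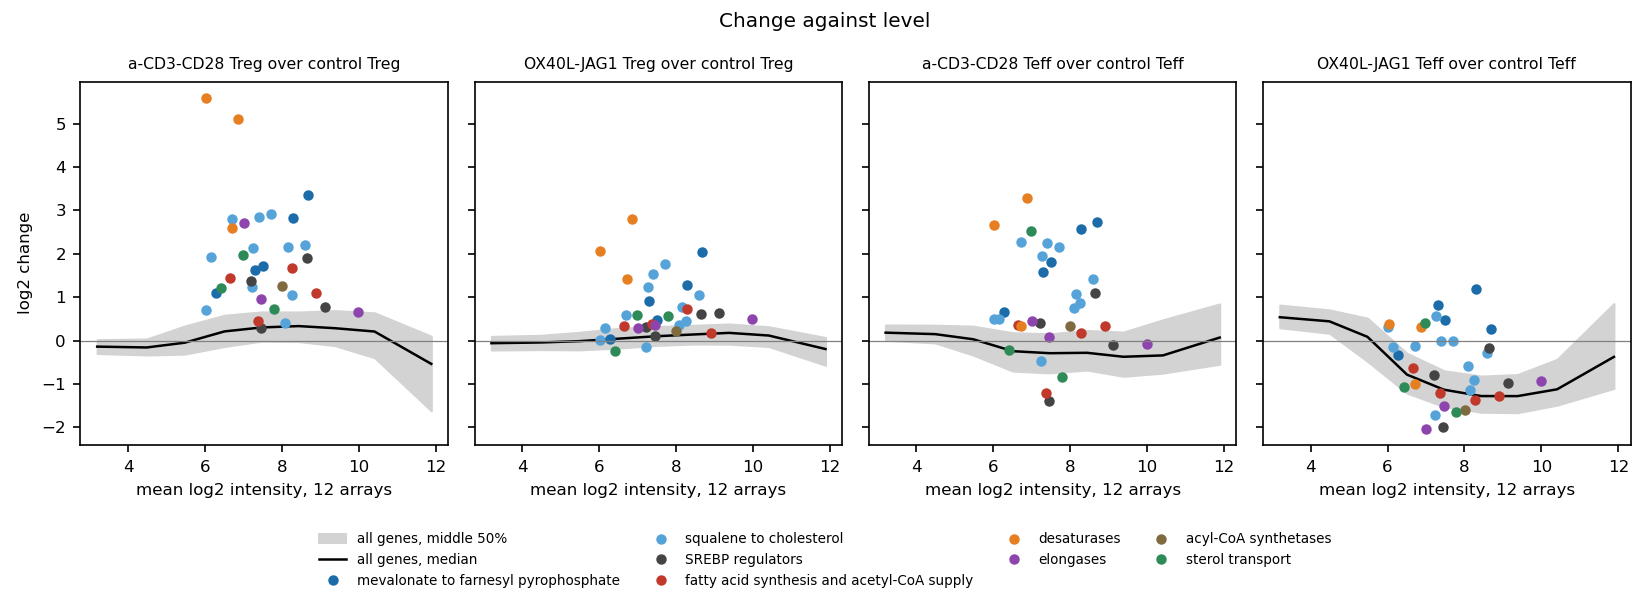
Log2 change (vertical axis) against mean log2 intensity over the 12 arrays (horizontal axis) for the 34 genes (points, coloured by subset), with the median (line) and middle 50% (band) of all genes, in the 4 comparisons of cultured with control cells. At levels of 6 to 10 the line lies between 0.21 and 0.33 for a-CD3-CD28 Treg and between 0.04 and 0.18 for OX40L-JAG1 Treg. There it lies between -0.24 and -0.37 for a-CD3-CD28 Teff. For OX40L-JAG1 Teff over control Teff it lies between -0.79 and -1.28, and most sterol enzymes lie above it.

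Comparisons that use the OX40L-JAG1 Teff arrays share this limit. In a-CD3-CD28 Teff over OX40L-JAG1 Teff 30 of the 34 genes were higher and none lower, against 18.9% of all genes that were higher; 17 were higher under quantile normalization and 16 once the level trend was removed. Hmgcs1 (2.47 ± 0.29), Elovl6 (2.49 ± 0.22), Lss (2.41 ± 0.24), Fads2 (2.98 ± 0.38) and Stard4 (2.11 ± 0.22) were among 16 genes called in every alternative and without any single array. In OX40L-JAG1 Treg over OX40L-JAG1 Teff 21 were higher and none lower, against 24.6% of all genes that were higher. But under quantile normalization 6 were higher and 5 lower, and with the level trend removed 2 were higher and 5 lower. Nsdhl (2.01 ± 0.31) and Fads1 (1.63 ± 0.19) were called throughout. The response of Treg minus that of Teff cells to OX40L-JAG1 was above 0 for 20 genes, against 21.3% of all genes, and for 3 genes, with 2 below 0, both under quantile normalization and with the loess trend taken out. Scaling to a common median gave 23. Fads1 (2.42 ± 0.27, adjusted p = 0.000318) and Elovl6 (2.33 ± 0.32, adjusted p = 0.000599) differed throughout, as they did after a-CD3-CD28. The 2 tests share the control arrays.

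Other genes of the same pathways moved less uniformly, but their lists hold dimmer genes, so the counts are not like for like. None of the 34 genes averaged below the lowest array median in all 6 groups. Scd3, Acacb, Elovl3, Elovl4, Hacd1, Hacd4, Me1, Thrsp, Ch25h, Cyp7b1, Cyp27a1 and Cd36 of the further lists did. After a-CD3-CD28 in Treg cells, none of 5 further sterol and SREBP genes was called over control Treg, against 8.08% of all genes that rose. Of 22 further fatty acid synthesis genes 3 rose: the mitochondrial citrate carrier Slc25a1 (1.49 ± 0.22), Scd4 (at least 0.48, control Treg being below background) and the acyl-CoA synthetase Acsl5 (1.04 ± 0.21). Of 13 sterol export, storage and oxysterol genes 4 rose, among them Lpcat3 (1.898 ± 0.203), a phospholipid-remodelling LXR target, and the lysosomal cholesterol carriers Npc1 (1.16 ± 0.18) and Npc2 (1.29 ± 0.18). Of 18 fatty acid uptake, lipolysis and oxidation genes 4 rose, among them Acadl (1.24 ± 0.32) and the transporter Slc27a1 (at least 1.04, control Treg being below background). None of these lists had a gene that fell. Without the OX40L-JAG1 Teff arrays 1 of the 5, 5 of the 22, 4 of the 13 and 7 of the 18 rose, against 14.8% of all genes.

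In a-CD3-CD28 Teff over control Teff the same lists went in both directions, beside 5.44% of all genes that rose and 9.75% that fell. The protease gene Mbtps2, which cuts SREBP free, fell (-1.197 ± 0.32), the 1 call among the 5 further sterol and SREBP genes. Of the 13 export, storage and oxysterol genes 1 rose, Npc2 (0.696 ± 0.18), and 4 fell, among them Mylip (-1.099 ± 0.18), whose product degrades lipoprotein receptors, and Npc1 (-0.94 ± 0.18). Of the 18 uptake, lipolysis and oxidation genes Acadl (1.62 ± 0.32) and Fabp5 (1.36 ± 0.299) rose, while the lysosomal lipase Lipa (-2.18 ± 0.204) and Cpt1a (-1.27 ± 0.19), the gate of mitochondrial fatty acid oxidation, fell. Of the 22 fatty acid synthesis genes 2 passed the test, Me1 and Hacd4, but for both genes both groups averaged under the lowest array median, so no change is given. Without the OX40L-JAG1 Teff arrays 2 of the 5 fell, 4 of the 22 rose and 4 fell, and the counts for the 13 and the 18 were the same, against 12.5% and 16.5% of all genes. The responses of Treg and Teff cells differed for 5 of the 13, with Lpcat3 (2.26 ± 0.29) and Npc1 (2.0999 ± 0.25) the largest, for 5 of the 18, with Lipa (2.46 ± 0.29) and Cpt1a (1.34 ± 0.27) among them, for 2 of the 22 and for 2 of the 5, against 10.1% of all genes.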

How the data were processed

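Affymetrix Mouse Gene 2.0 ST arrays measured total RNA of 12 samples. The authors deposited log2 intensities made with RMA, per the submitters' processing notes, and the values were used as deposited; no version of RMA is named there. Of 41345 rows, the 23521 with exactly 1 gene symbol were kept, and of genes with several rows the one with the highest mean, which left 22180 genes. Symbols were updated through Entrez IDs (GRCm38.p6 gene table) for 23328 rows. limma 3.58.1 in R 4.3.3 (lmFit, eBayes) was fitted over all 12 arrays with 1 mean per group (6 residual degrees of freedom), two-sided, with Benjamini-Hochberg adjustment over all genes within each of 9 comparisons and 2 interactions. The procedure was tested on simulated data. The 38 genes and all lists were chosen with earlier results of these data known. Values in every array are given for up to 3 genes of each subset with the largest change over control, and for the regulators and exporters throughout; other pathway genes named are up to 4 of a list with the largest called changes.

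Alternatives were a replicate block, other variance shrinkage, 2 other scalings, array weights, a filter on dim genes, the mean of a gene's rows, leaving out the OX40L-JAG1 Teff arrays or any single array, and a loess removal of the trend with level, chosen after seeing the data. The replicate labels are not used as a pairing: over the 15 pairs of groups the correlation of same-numbered arrays' deviations ran from -0.0693 to 0.182. The number of arrays limits the precision. Some genes of these pathways are not reported here.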

Additional observations from a re-analysis of the deposited data

Results flagged for a closer look

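The tests of the difference between cell types, the Treg response less the Teff response in log2 units, single out the results below. After a-CD3-CD28 the difference was above 0 for 11 genes: Hsd17b7 1.45, Srebf1 0.96, Scap 1.69, Acss2 1.65, Fasn 1.51, Scd1 2.93, Fads1 2.25, Fads2 1.81, Elovl6 2.26, Abca1 1.42 and Abcg1 1.58. A difference above 0 need not be a larger change in Treg cells. Scap, Acss2 and Abcg1 fell in Teff cells, and Scap and Acss2 were not called in Treg cells. Control Treg lay below background for Scd1 and Fads2, so only differences of at least 1.61 and at least 1.39 are measured for them. The bound of Scd1 takes its control Teff level, just above background, as measured. Of the 11, Acss2, Scd1, Fads1 and Elovl6 were called under every alternative and without any single array.

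After OX40L-JAG1 the difference was above 0 for 20 genes: Hmgcs1 1.76, Fdft1 1.33, Sqle 1.54, Cyp51 1.79, Nsdhl 1.92, Sc5d 1.36, Srebf1 1.102, Srebf2 1.62, Scap 2.100, Acly 1.46, Acss2 1.599, Fasn 2.11, Scd1 1.67, Fads1 2.42, Fads2 2.502, Elovl1 1.88, Elovl5 1.42, Elovl6 2.33, Acsl4 1.82 and Abcg1 2.203. Here too this need not be a larger change in Treg cells. Of the 20, only Hmgcs1, Cyp51, Scd1, Fads1 and Fads2 were called higher in OX40L-JAG1 Treg than in control Treg cells. Elovl6, among the others, fell in OX40L-JAG1 Teff cells. Only differences of at least 0.354 for Scd1, again with control Teff taken as measured, and at least 2.08 for Fads2 are measured. These differences use the OX40L-JAG1 Teff arrays, which stand apart from the rest, and Fads1 and Elovl6 alone were called under every alternative and without any single array.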

How the results depend on the processing

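The cause of each move given here was not tested. Counts are of the 34 genes. In OX40L-JAG1 Treg over control Treg, 7 calls became 13 without the OX40L-JAG1 Teff arrays and 12 with array weights. In a-CD3-CD28 Treg over OX40L-JAG1 Treg, 20 became 12 under quantile normalization. In OX40L-JAG1 Teff over control Teff, 18 (16 of them lower) became 12 under quantile normalization and 15 after removal of the level trend, both mostly higher, and 11 with array weights. In a-CD3-CD28 Teff over OX40L-JAG1 Teff, 30 became 18 under quantile normalization, 19 with array weights and 17 with the trend removed. In control Treg over control Teff, 4 became 2 with a replicate block, 12 without the OX40L-JAG1 Teff arrays, 1 under quantile normalization and 15 with array weights. In OX40L-JAG1 Treg over OX40L-JAG1 Teff, 21 higher became 11 under quantile normalization, 6 higher and 5 lower. With the trend removed they became 7, mostly lower. In a-CD3-CD28 Treg over a-CD3-CD28 Teff, 10 became 18 both without those arrays and with array weights, 3 under quantile normalization and 5 with the trend removed. The difference of the a-CD3-CD28 responses went from 11 calls to 21 both without those arrays and with array weights, 4 under quantile normalization and 6 with the trend removed; that of the OX40L-JAG1 responses from 20 to 5 both under quantile normalization and with the trend removed. The replicate block moved no other count by over 1.5 times.

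Leaving out 1 array at a time gave 23 to 31 calls in a-CD3-CD28 Treg over control Treg, 1 to 13 calls in OX40L-JAG1 Treg over control Treg, 8 to 28 calls in a-CD3-CD28 Treg over OX40L-JAG1 Treg, 13 to 21 calls in a-CD3-CD28 Teff over control Teff, 15 to 23 calls in OX40L-JAG1 Teff over control Teff, 21 to 32 calls in a-CD3-CD28 Teff over OX40L-JAG1 Teff, 0 to 12 calls in control Treg over control Teff, 16 to 24 calls in OX40L-JAG1 Treg over OX40L-JAG1 Teff, 2 to 18 calls in a-CD3-CD28 Treg over a-CD3-CD28 Teff, 7 to 21 calls in the a-CD3-CD28 response of Treg minus that of Teff, 16 to 25 calls in the OX40L-JAG1 response of Treg minus that of Teff; a lone array was assumed to vary like the other groups. Signs below are given where the gene was called in either setting. In OX40L-JAG1 Teff over control Teff, the sign turned under quantile normalization Fdft1 0.79, Sc5d 0.0649, Srebf1 0.0719, Srebf2 0.0664, Insig1 0.93, Elovl5 0.0016 and after removal of the level trend Fdft1 0.98, Sqle 1.05, Lss 0.67, Cyp51 1.11, Nsdhl 0.0647, Ebp 0.601, Sc5d 0.32, Srebf1 0.21, Srebf2 0.305, Insig1 1.099, Acly 0.0082, Elovl5 0.37. In OX40L-JAG1 Treg over OX40L-JAG1 Teff, the sign turned under quantile normalization Pmvk -0.704, Mvd -0.73, Fdps -0.77, Msmo1 -0.0489, Srebf1 -0.025, Srebf2 -0.0803, Insig1 -0.196, Acss2 -0.64 and after removal of the level trend Pmvk -0.73, Fdps -0.86, Msmo1 -0.11, Srebf1 -0.13, Srebf2 -0.301, Insig1 -0.34, Acly -0.12, Acss2 -0.65. In a-CD3-CD28 Teff over OX40L-JAG1 Teff, the sign turned under quantile normalization Mvd -0.11, Acss2 -0.77 and after removal of the level trend Srebf2 -0.0868, Acss2 -0.76, Elovl5 -0.14, Abcg1 -0.0496. In the OX40L-JAG1 response of Treg minus that of Teff, the sign turned under quantile normalization Fdps -1.08 and after removal of the level trend Fdps -1.24, Fdft1 -0.0565. With genes called in neither setting counted too, the sign turned under quantile normalization and with the trend removed for 12 and 15 of the 34 in OX40L-JAG1 Teff over control Teff, 12 and 15 of the 34 in OX40L-JAG1 Treg over OX40L-JAG1 Teff, 8 and 9 of the 34 in a-CD3-CD28 Treg over a-CD3-CD28 Teff, and for at most 6 and 10 in any other comparison. In OX40L-JAG1 Teff over control Teff, Sqle was 0.69 without OX40L-JAG1 Teff replicate B and -0.703 without replicate 1. In OX40L-JAG1 Teff over control Teff, Fads2 was 1.101 without OX40L-JAG1 Teff replicate B and -0.49 without replicate 1. Quantile normalization moved the share of higher among all called genes to 65.8% (main 80.4%) in a-CD3-CD28 Treg over control Treg, 66.2% (main 80.1%) in a-CD3-CD28 Treg over OX40L-JAG1 Treg, 55% (main 67.4%) in a-CD3-CD28 Teff over OX40L-JAG1 Teff, 49.1% (main 34.8%) in control Treg over control Teff, 62% (main 75.7%) in a-CD3-CD28 Treg over a-CD3-CD28 Teff, 56.9% (main 77.5%) in the a-CD3-CD28 response of Treg minus that of Teff. Scaling to a common median moved the share of higher among all called genes to 22.3% (main 42.7%) in OX40L-JAG1 Teff over control Teff, 80.4% (main 67.4%) in a-CD3-CD28 Teff over OX40L-JAG1 Teff, 79.3% (main 59.9%) in OX40L-JAG1 Treg over OX40L-JAG1 Teff, 87.4% (main 75.7%) in a-CD3-CD28 Treg over a-CD3-CD28 Teff, 88% (main 77.5%) in the a-CD3-CD28 response of Treg minus that of Teff, 85.4% (main 67.5%) in the OX40L-JAG1 response of Treg minus that of Teff. Scaling to a common median shifted the median of all genes most in the OX40L-JAG1 response of Treg minus that of Teff, to 0.08 against -0.17 as deposited. Over all genes, calls for a-CD3-CD28 Treg over control Treg numbered 2230, and 4770 without the OX40L-JAG1 Teff arrays. Of 7718 repeated tests of single genes, 6868 stayed on the same side of the threshold with no turn of sign in a called gene. Genes called in neither setting count among these even where their sign turned.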
